A study of Homo sapiens with 4 samples.

Results

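The core spliceosome proteins are the protein subunits of the small nuclear ribonucleoproteins (snRNPs) that remove introns, and their mRNAs were measured in RPMI 8226, a human multiple myeloma cell line. The 42 genes were taken from a list of symbols: the Sm and LSm ring proteins, the proteins particular to the U1, U2, U4/U6 and U5 snRNPs, the factors that read the branch point and the 3′ splice site, and a pair of Prp19 complex subunits. Each symbol matched 1 of the 78932 Ensembl genes in the count table, and all 42 passed the filter on low counts. Cells of one group were transfected at 5 nM with an LNA ASO against CELF2, a protein that binds RNA and takes part in splice-site choice. An LNA ASO is a short antisense strand with locked sugars that pairs with a chosen transcript. The other group received a control LNA ASO, for which the labels give no dose, and both were harvested at 72 hours with 2 libraries per group. Nothing in the labels says whether the 2 libraries of a group are separate cultures or carry different oligonucleotides, so every p-value rests on a library-to-library spread that may be purely technical. A single cell line was used, and all 12 plasma cell marker genes had counts, summing to 4498 and 3938 CPM (read counts scaled by the adjusted library size) in the CELF2 ASO libraries and 3534 and 3786 CPM with the control ASO.

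Introns are removed by snRNPs that assemble anew on each pre-mRNA. U1 binds the 5′ splice site, while SF1 and the U2AF heterodimer mark the branch point, the polypyrimidine tract and the 3′ splice site until U2 takes over the branch point. The U4/U6.U5 tri-snRNP then joins, RNA helicases release U1 and U4, and the Prp19 complex stabilises the active form. U1, U2, U4 and U5 each carry a ring of 7 Sm proteins around their RNA, and U6 carries a related ring of LSm proteins. Myeloma cells make large amounts of secreted immunoglobulin from spliced transcripts.

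Total counts were 26061900 and 23599190 in the CELF2 ASO libraries and 29161298 and 24493148 in the control ASO libraries. CELF2 had 56.6 and 48.8 CPM with the CELF2 ASO, against 128 CPM in each of the control ASO libraries. It was 2.43-fold lower with the CELF2 ASO, with a log2 fold change of -1.28 ± 0.09 (SE, edgeR adjusted p = 2.88e-05). The CELF2 ASO pair was more variable than the control ASO pair, with coefficients of biological variation of 13.7% and 3.58%. Markers of T and NK cells and of myeloid cells were scarce. The 9 T and NK cell markers summed to 2.81 and 2.30 CPM with the CELF2 ASO and 1.82 and 2.00 CPM with the control ASO. The 8 myeloid markers summed to 3.06 and 3.22 CPM with the CELF2 ASO against 5.04 and 5.33 CPM with the control ASO. LYZ, S100A8 and FCGR3A were at 0 in all 4 libraries. The 9 stromal and epithelial markers summed to 87.1 and 87.5 CPM with the CELF2 ASO, against 124 and 121 CPM with the control ASO. The part of these genes in the results below was not tested.

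Most core spliceosome mRNAs were less abundant with the CELF2 ASO. Of the 42 genes, 37 were lower, 3 were higher (SNRPD3, LSM8 and PRPF19) and 2 did not pass (SF3B5 and SNRNP200), by edgeR's quasi-likelihood test with Benjamini-Hochberg adjustment over all genes and a threshold of 0.05. Over all 19511 genes tested, 55.5% passed, 27.9% lower and 27.5% higher, so any gene had a high chance of a call and the counts are read against that share. Among tested protein-coding genes, 35.4% were lower and 28% higher. The median log2 fold change of the 42 genes was -0.82, with the middle of the list between -1.08 and -0.45, against 0.04 over all tested genes and -0.05 over tested protein-coding genes. For 41 of the 42 genes, 38 lower and 3 higher, the CPM ranges of the groups were separate. That was so for 79.6% of all tested genes, 38.4% lower and 41.2% higher. Together the 42 genes took 0.678% and 0.661% of the counts in the CELF2 ASO libraries and 0.983% and 0.988% in the control ASO libraries. In bulk RNA, fewer cells of a kind and less RNA per cell cannot be told apart.

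Falls of at least 2-fold were made by 13 of the 42 genes, and none was 2-fold higher, while 11.1% of all tested genes were called at least 2-fold lower and 14.5% at least 2-fold higher. Falls of at least 1.5-fold were made by 27 of the 42 genes, beside 20.1% of all tested genes. The 3 rises were 1.23-fold for PRPF19, 1.26-fold for SNRPD3 and 1.57-fold for LSM8. They were small beside the larger falls, but LSM6 (1.57-fold), LSM4 (1.23-fold) and SF3B1 (1.22-fold) fell by similar amounts. Without control ASO library 1, LSM8 was the only one of the 42 called higher and 34 were lower, beside 19.4% higher and 21.6% lower among all genes of that fit. Without control ASO library 2, LSM8 was again the only one higher and 33 were lower, beside 19.3% and 21.3%. In both fits the spread is estimated from the more variable CELF2 ASO pair alone. Without CELF2 ASO library 1, 4 were higher and 38 lower (29.7% and 29.6% of all genes), and without CELF2 ASO library 2, 3 were higher and 38 lower (27.7% and 29.8%). In those last 2 fits the spread is estimated from the less variable control ASO pair alone.

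**Figure D1:**
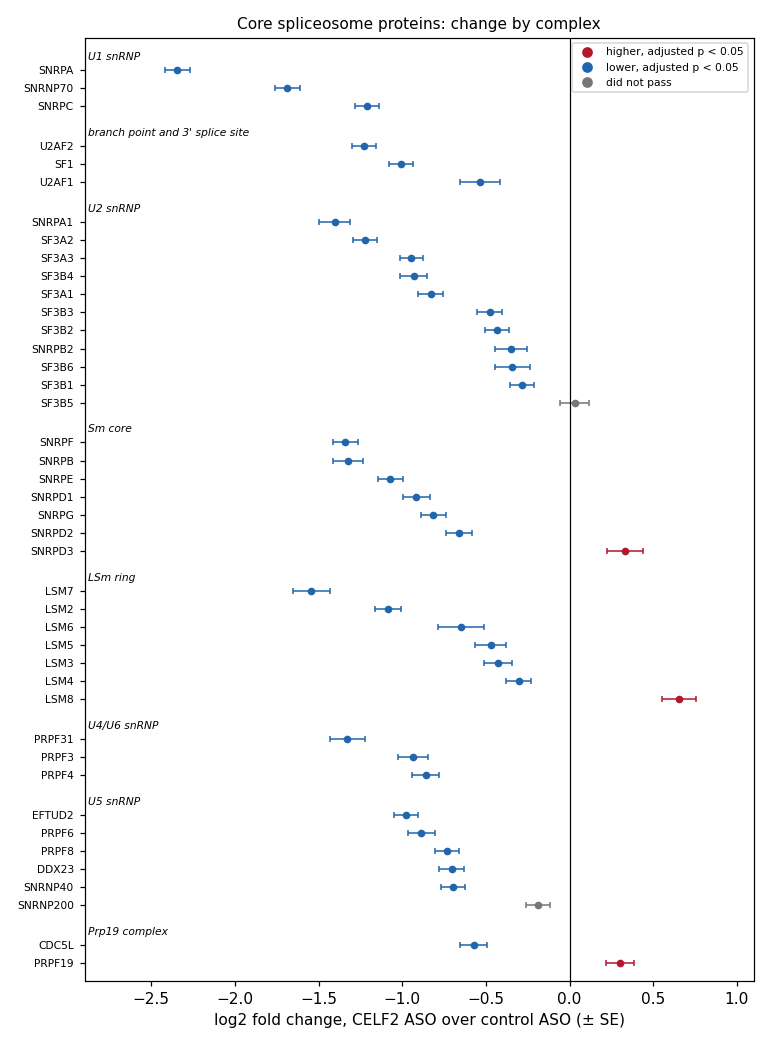
Log2 fold change of each core spliceosome gene, CELF2 ASO over control ASO, with its standard error as the bar, grouped by complex; red genes were called higher, blue lower and grey did not pass. All U1, U4/U6 and branch point genes lie left of 0, SNRPA lies farthest left at -2.35, and SNRPD3, LSM8 and PRPF19 lie right of 0.

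The 3 U1-specific proteins fell together, with a median log2 fold change of -1.69. SNRPA encodes the A protein of U1, which binds a stem-loop of U1 RNA and also controls polyadenylation of its own mRNA. The gene (ENSG00000077312, GRCh38 chromosome 19, 40750637 to 40765389, plus strand, 6 exons) had 30.6 and 30.8 CPM with the CELF2 ASO, against 154 and 158 CPM with the control ASO. The libraries of each group were nearly equal and the groups were far apart. It was 5.09-fold lower, with a log2 fold change of -2.35 ± 0.07 (SE, edgeR adjusted p = 3.46e-06), the largest fall among the 42. SNRNP70, the U1-70K protein that contacts SR proteins at the 5′ splice site, had 44.0 CPM in both CELF2 ASO libraries, against 140 and 143 CPM with the control ASO, a log2 change of -1.69 ± 0.07 (edgeR adjusted p = 5.78e-06). SNRPC, the zinc-finger C protein of U1 that helps it hold the 5′ splice site, had 96.5 and 97.6 CPM with the CELF2 ASO and 222 and 227 CPM with the control ASO. Its log2 fold change was -1.21 ± 0.07 (edgeR adjusted p = 1.43e-05). ACTMAP overlaps 3.77% of the exonic sequence of SNRPA on the opposite strand.

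The factors that first read the 3′ end of the intron were lower as well. SF1, which binds the branch point, had 303 and 312 CPM with the CELF2 ASO and 619 and 616 CPM with the control ASO, a log2 change of -1.01 ± 0.07 (edgeR adjusted p = 2.93e-05). U2AF2, the large U2AF subunit that binds the polypyrimidine tract, had 183 and 182 CPM with the CELF2 ASO, against 422 and 434 CPM with the control ASO. It was 2.35-fold lower (log2 fold change -1.23 ± 0.07, edgeR adjusted p = 1.38e-05). U2AF1, the small subunit that reads the AG at the 3′ splice site, had 12.9 and 14.6 CPM with the CELF2 ASO and 18.9 and 20.9 CPM with the control ASO, a smaller difference of -0.54 ± 0.12 (edgeR adjusted p = 0.00662). Without control ASO library 2 its adjusted p was 0.0545. The U2AF1 count is uncertain, because 96.4% of the 150-base windows of its main transcript are shared with U2AF1L5 on the same chromosome, which had 0 counts in both CELF2 ASO libraries and 0 and 1 counts with the control ASO. How reads that map to both copies were counted is not given in the sources used here.

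Among the 11 U2 proteins, 10 fell and SF3B5 did not pass, with a median log2 fold change of -0.48. The U2 RNA-binding pair was unequal. SNRPA1, the A′ protein of U2, had 29.2 and 25.3 CPM with the CELF2 ASO and 74.2 and 70.1 CPM with the control ASO, a log2 change of -1.40 ± 0.09 (edgeR adjusted p = 2.27e-05), with 10.7% of its windows shared with other genes. SNRPB2, the B″ protein of U2 that binds with it, had 26.5 and 29.1 CPM with the CELF2 ASO and 36.5 and 34.3 CPM with the control ASO, a log2 change of -0.35 ± 0.09 (edgeR adjusted p = 0.0151). Its adjusted p was 0.140 without control ASO library 1, 0.0533 without control ASO library 2 and 0.0585 when libraries were scaled by totals alone.

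The SF3a trimer, which bridges U2 to the pre-mRNA, was lower in all 3 subunits. SF3A2 had 118 and 115 CPM with the CELF2 ASO and 268 and 277 CPM with the control ASO (log2 fold change -1.22 ± 0.07, edgeR adjusted p = 1.46e-05). PLEKHJ1, itself lower (log2 fold change -0.54, edgeR adjusted p = 0.00142), covers 12.7% of the exonic sequence of SF3A2 on the opposite strand. Its part in the SF3A2 count was not tested. SF3A3 had 150 and 148 CPM with the CELF2 ASO and 290 and 284 CPM with the control ASO (log2 fold change -0.95). SF3A1 had 306 and 327 CPM with the CELF2 ASO and 566 and 560 CPM with the control ASO (log2 fold change -0.83). No library of one group reached the range of the other in any of the 3.

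The SF3b complex clamps the branch point duplex, and its members spread from -0.93 to 0.03 on the log2 scale. SF3B4, an RNA-binding subunit, was lowest, with 161 and 178 CPM with the CELF2 ASO against 325 and 323 CPM with the control ASO (log2 fold change -0.93 ± 0.08, edgeR adjusted p = 6.65e-05). SF3B3, a large repeat protein, had 514 and 554 CPM with the CELF2 ASO and 745 and 744 CPM with the control ASO (log2 fold change -0.48). SF3B2, which binds SF3B4, had 665 and 693 CPM with the CELF2 ASO and 907 and 931 CPM with the control ASO (log2 fold change -0.44). All 3 had separate groups. SF3B1, the helical-repeat scaffold that is often mutated in blood cancers, had 217 and 231 CPM with the CELF2 ASO and 277 and 269 CPM with the control ASO. Its log2 fold change was -0.28 ± 0.07 (edgeR adjusted p = 0.0132), with adjusted p values of 0.155 and 0.104 without control ASO library 1 or 2 and 0.0741 under scaling by totals alone. SF3B6, which lies next to the branch point adenosine, had 33.4 and 40.2 CPM with the CELF2 ASO and 47.8 and 45.5 CPM with the control ASO (-0.34 ± 0.10, edgeR adjusted p = 0.0254). It lost its call without control ASO library 1 (adjusted p = 0.107) and under scaling by totals alone (0.0769).

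SF3B5, a small structural subunit and the only gene of the 42 with a single exon (ENSG00000169976, chromosome 6, 144094881 to 144095573, minus strand), had 97.1 and 112 CPM with the CELF2 ASO and 100.3 and 104 CPM with the control ASO. The control libraries lay between the CELF2 ASO libraries, and the log2 fold change was 0.030 ± 0.09 (edgeR adjusted p = 0.796). It was 0.14 and past the threshold without CELF2 ASO library 1 (edgeR adjusted p = 0.0260, with the spread of the control ASO pair alone), and turned to -0.093 without CELF2 ASO library 2 (0.162) and to -0.027 without control ASO library 1 (0.911).

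**Figure D2:**
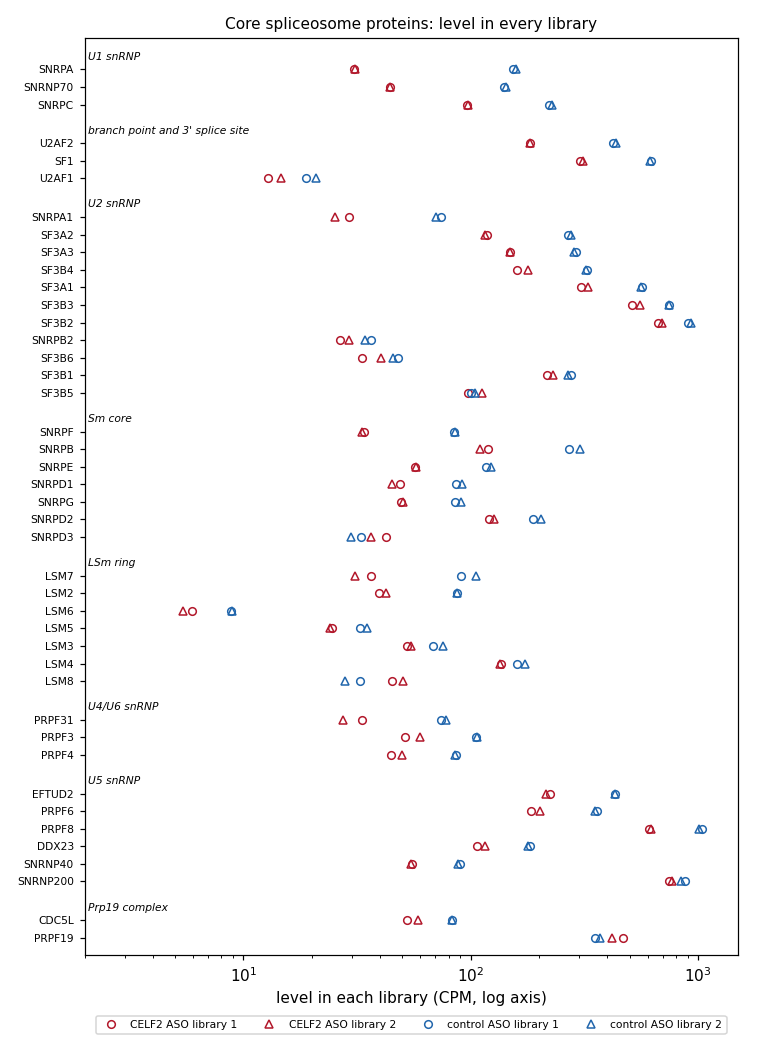
Level of each core spliceosome gene in each of the 4 libraries, in CPM on a log axis, grouped by complex; red marks are the CELF2 ASO libraries and blue marks the control ASO libraries. For most genes both red marks lie left of both blue marks, SF3B5 has blue marks between the red ones, and SNRPD3, LSM8 and PRPF19 have both red marks on the right.

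In the Sm ring, which is shared by U1, U2, U4 and U5, 6 of 7 proteins fell and SNRPD3 was higher. The ring is built from a B-D3 pair, a D1-D2 pair and an E-F-G trimer. SNRPF had 33.8 and 33.4 CPM with the CELF2 ASO and 84.4 and 85.7 CPM with the control ASO (log2 fold change -1.34 ± 0.07, edgeR adjusted p = 1.16e-05). SNRPE had 56.8 and 57.4 CPM with the CELF2 ASO and 117 and 122 CPM with the control ASO, and SNRPG had 49.4 and 50.5 CPM with the CELF2 ASO and 85.4 and 90.4 CPM with the control ASO. The falls of this trimer were unequal, at -1.34 for SNRPF, -1.07 for SNRPE and -0.81 for SNRPG on the log2 scale. In the D1-D2 pair, SNRPD1 had 49.0 and 44.9 CPM with the CELF2 ASO and 86.0 and 91.3 CPM with the control ASO (log2 fold change -0.92). SNRPD2 had 121 and 127 CPM with the CELF2 ASO and 188 and 205 CPM with the control ASO (log2 fold change -0.66). For these 5 genes both CELF2 ASO libraries were below both controls.

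The B-D3 pair moved in opposite directions. SNRPB, which encodes SmB and its longer isoform, had 119 and 109 CPM with the CELF2 ASO, against 270 and 302 CPM with the control ASO. It was 2.50-fold lower (log2 fold change -1.32 ± 0.09, edgeR adjusted p = 2.32e-05). Its partner SNRPD3 (ENSG00000100028, chromosome 22, 24555503 to 24609980, plus strand, 4 exons) had 42.5 and 36.6 CPM with the CELF2 ASO and 33.0 and 29.8 CPM with the control ASO. The ranges did not overlap but lay close, and the log2 fold change was 0.33 ± 0.11 (edgeR adjusted p = 0.0296). That call was lost without control ASO library 1 (adjusted p = 0.0801), without control ASO library 2 (0.306) and in DESeq2 (0.0827), with a positive sign in each.

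Neighbours of SNRPD3 could contribute reads to it. The same-strand gene GGT1 covers 12.0% of its exonic sequence, and the opposite-strand gene GUCD1 covers 12.6%. GGT1 stood at 0.27 on the log2 scale (edgeR adjusted p = 0.252) and GUCD1 at -0.32 (edgeR adjusted p = 0.00734), and their part in the SNRPD3 count was not tested.

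In the LSm ring of U6, which binds the uridine tail of that RNA, 6 of 7 proteins fell and LSM8 was higher. LSM7 had 36.4 and 30.9 CPM with the CELF2 ASO and 90.8 and 106 CPM with the control ASO, a log2 change of -1.54 ± 0.11 (edgeR adjusted p = 3.12e-05). LSM2 had 39.5 and 42.4 CPM with the CELF2 ASO and 86.6 and 87.1 CPM with the control ASO (log2 fold change -1.08 ± 0.08, edgeR adjusted p = 2.92e-05). The other falls were smaller, at -0.65 for LSM6, -0.47 for LSM5, -0.43 for LSM3 and -0.30 for LSM4. LSM6, the least abundant, had 5.91 and 5.40 CPM with the CELF2 ASO and 8.82 and 8.95 CPM with the control ASO. LSM5 had 24.7 and 24.1 CPM with the CELF2 ASO and 32.6 and 35.0 CPM with the control ASO, and LSM3 had 52.3 and 54.4 CPM with the CELF2 ASO and 68.1 and 75.5 CPM with the control ASO. Each of the 6 had both CELF2 ASO libraries below both controls. LSM4 had 136 and 135 CPM with the CELF2 ASO, against 160 and 174 CPM with the control ASO (edgeR adjusted p = 0.0113). It did not pass without control ASO library 2 (0.188) or under scaling by totals alone (0.0812). LSM3 overlaps XPC on the opposite strand over 8.34% of its exonic sequence, and XPC itself was higher (log2 fold change 0.80, edgeR adjusted p = 0.000177).

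LSM8 is the subunit that sets the nuclear ring apart: with LSM8 the ring of LSm2 to LSm7 binds U6 RNA, and with LSM1 in its place it binds mRNA tails in cytoplasmic decay. LSM8 (ENSG00000128534, chromosome 7, 118184032 to 118192824, plus strand, 4 exons) had 45.2 and 50.4 CPM with the CELF2 ASO, against 32.5 and 28.1 CPM with the control ASO. Both CELF2 ASO libraries were above both controls, and the log2 fold change was 0.66 ± 0.10 (edgeR adjusted p = 0.00130). It passed in all 11 alternative fits, with adjusted p between 7.22e-20 and 0.00885. LSM1 had 7.72 and 8.58 CPM with the CELF2 ASO and 12.2 and 14.3 CPM with the control ASO, a log2 change of -0.70 (edgeR adjusted p = 0.00391). No annotated gene overlaps the exons of LSM8.

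**Figure D3:**
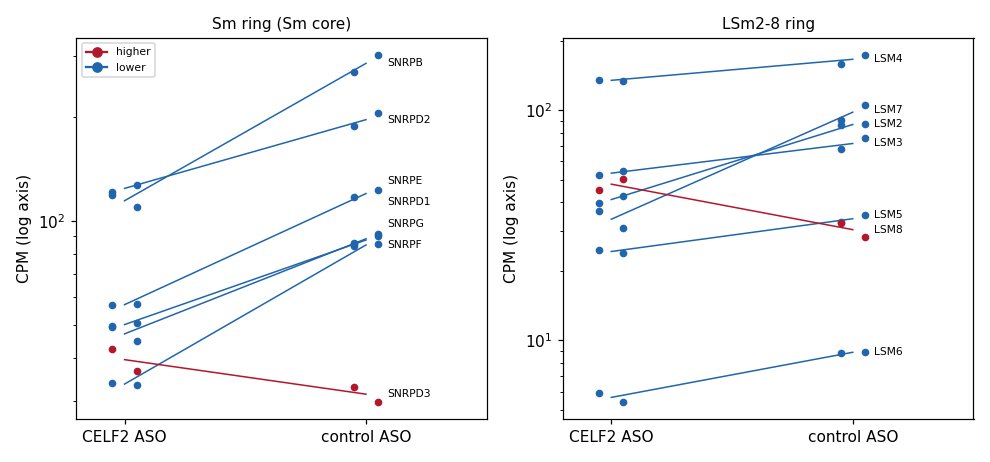
Levels of the Sm ring genes (left) and of the LSm ring genes of U6 (right) in each library, in CPM on a log axis, with a line through the group means. In each ring 6 lines are lower with the CELF2 ASO and 1 is higher, SNRPD3 in the Sm ring and LSM8 in the LSm ring.

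All 3 U4/U6 proteins fell. PRPF31, which bridges U4/U6 to U5 and is mutated in retinitis pigmentosa, had 33.3 and 27.3 CPM with the CELF2 ASO and 74.1 and 78.2 CPM with the control ASO. Its log2 fold change was -1.33 ± 0.11 (edgeR adjusted p = 4.65e-05). PRPF31-AS1, an antisense gene over 22.0% of its exonic sequence, was also lower (log2 fold change -2.05, edgeR adjusted p = 0.000587), and reads of the pair cannot be told apart without a stated strand setting. PRPF3 and PRPF4 form a complex on the U4/U6 duplex and fell by similar amounts. PRPF3 had 51.4 and 59.6 CPM with the CELF2 ASO and 106 and 107 CPM with the control ASO (log2 fold change -0.94). PRPF4 had 44.5 and 49.6 CPM with the CELF2 ASO and 85.9 and 84.9 CPM with the control ASO (log2 fold change -0.86).

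Of the 6 U5 proteins, 5 fell, and the median over the 6 was -0.72 on the log2 scale. PRPF8, the large scaffold that holds the catalytic RNA core, had 610 and 622 CPM with the CELF2 ASO and 1040 and 1009 CPM with the control ASO (log2 fold change -0.73 ± 0.07, edgeR adjusted p = 0.000116). EFTUD2, a GTPase that binds PRPF8, had 223 and 214 CPM with the CELF2 ASO, against 432 and 430 CPM with the control ASO (log2 fold change -0.98 ± 0.07, edgeR adjusted p = 3.24e-05). The other 3 falls lay between -0.89 and -0.69 on the log2 scale. PRPF6, the tri-snRNP bridging protein, had 184 and 202 CPM with the CELF2 ASO and 361 and 352 CPM with the control ASO (log2 fold change -0.89). DDX23, the helicase that helps displace U1, had 107 and 115 CPM with the CELF2 ASO and 183 and 180 CPM with the control ASO (log2 fold change -0.70). SNRNP40, a WD40 protein, had 55.0 and 54.7 CPM with the CELF2 ASO and 90.0 and 87.6 CPM with the control ASO (log2 fold change -0.69).

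SNRNP200, the Brr2 helicase that unwinds U4 from U6, had 746 and 768 CPM with the CELF2 ASO and 877 and 845 CPM with the control ASO. The ranges did not overlap, but the log2 fold change of -0.19 ± 0.07 missed the threshold (edgeR adjusted p = 0.0594). Its adjusted p lay between 8.74e-07 and 0.409 over the 11 alternatives and passed in 5 of them, among them the fits without CELF2 ASO library 1 (0.00155) and library 2 (8.74e-07), whose spread comes from the less variable control ASO pair alone.

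The 2 Prp19 complex genes moved apart. PRPF19, the ubiquitin ligase that gives the complex its name (ENSG00000110107, chromosome 11, 60890730 to 60906588, minus strand, 16 exons), had 469 and 418 CPM with the CELF2 ASO and 351 and 369 CPM with the control ASO. The ranges were separate, and the log2 fold change was 0.30 ± 0.08 (edgeR adjusted p = 0.0175). The call was lost without control ASO library 1 (0.286) or library 2 (0.154). CDC5L, the Myb-like scaffold of the complex, had 52.6 and 58.7 CPM with the CELF2 ASO and 82.7 and 82.9 CPM with the control ASO (log2 fold change -0.57 ± 0.08, edgeR adjusted p = 0.000767).

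Because partners changed by unequal amounts, their ratios differed between the groups. The 12 pairs were chosen after the values were seen, so the ratios are descriptions with no test. They use CPM per kilobase of the main transcript, so their absolute size depends on the transcript chosen while the change between groups does not. The ratio of SNRPD3 to SNRPB was 0.234 and 0.219 with the CELF2 ASO and 0.0801 and 0.0645 with the control ASO, 3.13-fold higher. The ratio of LSM8 to LSM1, the alternative seventh members of the LSm ring, was 5.15 and 5.17 with the CELF2 ASO and 2.34 and 1.73 with the control ASO, 2.53-fold higher. Against LSM2, LSM8 was 3.34-fold higher.

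The ratio of SNRPB2 to SNRPA, which encode related RNA-binding proteins of U2 and U1, was 0.886 and 0.963 with the CELF2 ASO and 0.242 and 0.221 with the control ASO, 3.99-fold higher. PRPF19 against CDC5L was 1.84-fold higher, U2AF1 against U2AF2 1.62-fold and SNRNP200 against PRPF8 1.46-fold. The U2AF1 ratio rests on a count that is uncertain because of the windows shared with U2AF1L5. Within the E-F-G trimer, SNRPG against SNRPF was 1.44-fold higher and SNRPE against SNRPF 1.21-fold. SF3B1 against SF3B3 was 1.14-fold higher and SF3A1 against SF3A3 1.08-fold, while SNRPD1 against SNRPD2 was 1.19-fold lower. None of the 12 ratios overlapped between the groups, but the share for other pairs of genes was not computed. Among single tested genes, 79.6% had separate CPM ranges.

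**Figure D4:**
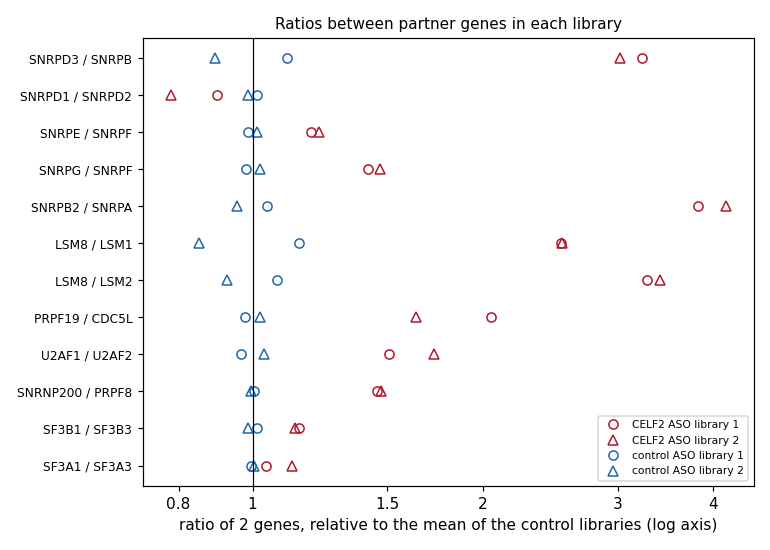
Ratio of 12 pairs of partner genes in each library, divided by the mean ratio of the control ASO libraries, on a log axis; red marks are the CELF2 ASO libraries and blue marks the control ASO libraries. SNRPB2 over SNRPA, LSM8 over LSM2 and SNRPD3 over SNRPB lie above 3 times the control mean in the CELF2 ASO libraries.

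Levels per kilobase reordered accordingly. SF3B2 had the highest level of the 42 in both groups, at 234 CPM per kilobase with the CELF2 ASO and 316 with the control ASO. PRPF19 ranked 2nd with the CELF2 ASO and 8th with the control ASO. SNRPA ranked 33rd with the CELF2 ASO and 19th with the control ASO. LSM6 was lowest in both groups, at 2.50 CPM per kilobase with the CELF2 ASO and 3.93 with the control ASO.

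Size and position were compared with the change as descriptions. The 19 genes encoding proteins under 250 residues had a median log2 fold change of -0.65, with 16 lower and 2 higher. The 23 encoding longer proteins had a median of -0.89, with 21 lower and 1 higher. Over the 42 genes, the rank correlation of log2 fold change was 0.02 with coding length, -0.03 with exon number and 0.22 with transcript length. It was -0.31 with the control level per kilobase, a quantity that shares the control libraries with the fold change. Chromosome 19 held 8 of the genes (SNRPD2, LSM4, LSM7, SNRPA, SNRNP70, U2AF2, SF3A2 and PRPF31), all lower. Their median was -1.28, against -0.72 for the other 34, of which 29 were lower and 3 higher. Over all tested genes, 27.9% were lower. The share and median over all tested genes of chromosome 19 were not computed, so a part of position was not tested.

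The median replicate scatter of the 42 genes was small beside their median log2 fold change of -0.82, but this did not hold for every gene. The median absolute log2 ratio of CELF2 ASO library 1 to library 2 was 0.101 for the 42 genes and 0.213 for all tested genes. For the control ASO pair it was 0.0425 and 0.121. All tested genes were not matched to the 42 by count level. The log2 ratio of CELF2 ASO library 1 to library 2 was -0.269 for SF3B6, beside a log2 fold change of -0.343. It was 0.217 beside 0.333 for SNRPD3 and -0.204 beside 0.030 for SF3B5.

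Promoters were examined because most of the genes moved together, a choice made after the values were seen. RefSeq windows from 250 bases before to 50 bases after the start (GRCh38.p14) were matched for 38 of the 42. Each was searched on both strands for 7 short motifs: CCGGAAG (the core bound by ETS factors), GGGCGG (the GC box), CCAAT (the CCAAT box), the E-box CACGTG of MYC and related factors, the CRE TGACGTCA, the C/EBP-ATF composite TGATGCAA and the palindromic NRF1 motif. The ETS motif was in 18 of 38 windows (47.4%), against 10.3% of all 35114 windows and 19.3% of the 10343 windows of tested coding genes. These sets were chosen by unlike rules, so their shares are not like for like. Each of the 38 was the window nearest the annotated gene start. The coding set took the first listed window of each gene, and the full set took every window. No ETS match in the windows of the 38 overlapped another of the motifs. The GC box was in 68.4%, against 69.5% of windows of tested coding genes, and CCAAT in 36.8% against 36.7%. The E-box was in 2 windows, the CRE in 1, the NRF1 motif in 1 and the C/EBP-ATF composite in none. The 18 genes with the ETS motif had a median log2 fold change of -0.86 and the 20 without it -0.72, with 16 and 17 called lower and 1 and 2 called higher, so both classes held genes of both directions.

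The windows below show a gene of each direction with the ETS motif, LSM8 (higher) at chr7:118183914-118184213 (plus strand) and SNRPC (lower) at chr6:34757255-34757554 (plus strand), and a gene of each direction without it, SNRPD3 (higher) at chr22:24555400-24555699 (plus strand) and SNRPA (lower) at chr19:40750953-40751252 (plus strand). Capitals mark CCGGAAG or its reverse complement CTTCCGG, and in SNRPC a match on each strand overlaps to give 1 palindromic run.
LSM8: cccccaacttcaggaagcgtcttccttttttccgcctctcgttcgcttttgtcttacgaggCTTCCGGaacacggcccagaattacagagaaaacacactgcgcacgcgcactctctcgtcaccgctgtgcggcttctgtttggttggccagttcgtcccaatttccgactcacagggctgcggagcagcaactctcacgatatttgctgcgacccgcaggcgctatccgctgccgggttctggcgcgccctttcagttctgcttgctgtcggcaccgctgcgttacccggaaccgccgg
SNRPC: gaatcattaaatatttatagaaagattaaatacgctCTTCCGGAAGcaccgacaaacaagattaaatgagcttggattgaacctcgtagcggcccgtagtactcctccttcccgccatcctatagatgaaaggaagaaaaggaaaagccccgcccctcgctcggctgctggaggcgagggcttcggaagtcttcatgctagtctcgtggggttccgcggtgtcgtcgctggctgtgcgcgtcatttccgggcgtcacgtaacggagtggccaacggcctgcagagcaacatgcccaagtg
SNRPD3: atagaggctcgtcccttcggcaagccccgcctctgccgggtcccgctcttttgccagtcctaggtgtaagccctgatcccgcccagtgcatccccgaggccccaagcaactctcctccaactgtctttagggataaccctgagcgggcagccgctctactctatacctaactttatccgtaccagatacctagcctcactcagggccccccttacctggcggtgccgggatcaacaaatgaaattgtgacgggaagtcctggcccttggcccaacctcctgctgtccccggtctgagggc
SNRPA: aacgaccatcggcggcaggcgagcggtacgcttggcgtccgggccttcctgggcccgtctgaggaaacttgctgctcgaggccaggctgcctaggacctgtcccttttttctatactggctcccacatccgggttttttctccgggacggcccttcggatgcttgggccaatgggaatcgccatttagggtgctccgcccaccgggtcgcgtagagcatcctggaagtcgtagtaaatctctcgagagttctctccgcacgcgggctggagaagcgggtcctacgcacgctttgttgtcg
A match is a run of letters and not a measured binding site.

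Processed pseudogenes and paralogs of the 42 genes were counted to see where reads could be split. By symbol, 69 copies were found, and 17 had at least 10 counts in a library. All 17 were tested, 8 were lower and none higher, beside 27.9% of all tested genes lower. The pseudogenes held up to 8.92% of their parent's counts, the highest share being SNRPGP10 of SNRPG with the CELF2 ASO. U2AF1L4, a coding paralog, had 23.9% of the counts of U2AF1 with the CELF2 ASO and 24.2% with the control ASO. It stood at -0.55 on the log2 scale (edgeR adjusted p = 0.0572). Its share depends on the U2AF1 count, which is uncertain because of the windows shared with U2AF1L5. Of the 42 genes, 38 shared no 150-base window with another annotated gene.

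The RNA partners of these proteins were measured poorly. Small nuclear RNA (snRNA) genes were matched by symbol to the U1, U2, U4, U5 and U6 families and their variants. They summed to 63.5 and 59.6 CPM with the CELF2 ASO and 76.6 and 74.4 CPM with the control ASO. Of 29 tested, 9 were lower, beside 27.9% of all tested genes, and none was higher. The match by symbol also took in RNU4ATAC and RNU6ATAC of the minor spliceosome, described below, and copies with symbols ending in P, such as RNU6-33P. No U2 gene reached 10 counts in any library. RNVU1-28, a U1 variant gene, had 5.73 and 4.19 CPM with the CELF2 ASO and 13.6 and 13.0 CPM with the control ASO (log2 fold change -1.42, edgeR adjusted p = 0.000319). RNU4-2 and RNU4-1 had log2 fold changes of -0.21 and -0.03 and did not pass. The labels name both poly(A) selection and removal of ribosomal RNA, and snRNAs lack a poly(A) tail, so their level against mRNA has no fixed meaning here, and their many near-identical copies make each gene's count uncertain.

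The wider spliceosome was described by 10 further lists with 120 genes, of which 119 were tested. Of these, 63 were lower (52.9%) and 13 higher, beside 27.9% lower and 27.5% higher among all tested genes. Among tested protein-coding genes, 35.4% were lower and 28% higher. The median log2 fold change of the 119 genes was -0.28, against -0.82 for the 42 core genes. Without control ASO library 1, 8 were higher and 49 lower, beside 19.4% and 21.6% of all genes of that fit. The lists were not tested against each other or against the core genes.

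The proteins that build snRNPs had the most calls among the 10 lists, with 15 of 20 lower and 3 higher. Among all tested genes, 27.9% were lower and 27.5% higher. The median of the snRNP assembly list was -0.58. GEMIN5, which recognises snRNAs for the SMN complex, had 55.2 and 47.2 CPM with the CELF2 ASO and 201 and 202 CPM with the control ASO, a log2 change of -1.98 ± 0.09 (edgeR adjusted p = 7.33e-06). GEMIN2, which holds the open Sm ring, was the largest rise at 0.72 ± 0.18 (edgeR adjusted p = 0.0115), with 5.91 and 5.36 CPM with the CELF2 ASO and 3.79 and 3.03 CPM with the control ASO. PRMT5 and its cofactor WDR77, which methylate arginines of SmB, SmD1 and SmD3 before ring assembly, changed by -1.60 and -1.85 and were named after their values were seen. SMN1 and SMN2 are near-identical, and their separate counts are uncertain.

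Shares over all tested genes, for the counts that follow, were 27.9% lower and 27.5% higher. Tri-snRNP auxiliary proteins had 6 of 9 lower and 1 higher (median -0.72), with SART1 at -1.03 and SART3, a U6 recycling factor, at 0.22. U2 recruitment factors had 10 of 15 lower and 2 higher (median -0.28), from RBM10, an alternative splicing regulator, at -1.18 to the helicase DDX39B at 0.69. The exon junction complex had 6 of 9 lower and none higher (median -0.43), with PNN at -0.77. Other Sm and LSm proteins had 4 of 8 tested lower and 1 higher (median -0.39), with LSM12 at -0.93 and the decay factor PATL1 at 0.41.

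For the next 4 lists the share called in either direction was 33.3% to 55.6%, beside 55.5% of all tested genes. Prp19-related proteins had 7 of 18 lower and 3 higher (median -0.16), with XAB2 at -0.85 and BUD31 at 0.65. Catalytic and second-step factors had 6 of 13 lower and 1 higher (median -0.21), with YJU2 at -1.47 and SLU7, a 3′ splice site selection factor, at 0.43. The B complex had 2 of 6 lower and none higher (median -0.22), with PRPF38A at -0.60. U1 auxiliary proteins had 4 of 9 lower and none higher (median -0.09), with LUC7L at -0.94.

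The minor spliceosome removes the rare U12-type introns and shares the Sm ring and SF3b. Of its 12 specific proteins, 3 were lower (25%, beside 27.9% of all tested genes). Another 2 of its proteins were higher (beside 27.5% of all tested genes), and the median of its list was -0.00. Its SNRNP25, a U11 protein, had 27.9 and 25.5 CPM with the CELF2 ASO and 153 and 147 CPM with the control ASO. At -2.49 ± 0.08 on the log2 scale (edgeR adjusted p = 3.55e-06), this was the lowest value among the 119 tested genes. ZRSR2, which reads the 3′ splice site of those introns, had 13.2 and 13.7 CPM with the CELF2 ASO and 7.36 and 9.38 CPM with the control ASO (log2 fold change 0.69 ± 0.15, edgeR adjusted p = 0.00559).

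**Figure D5:**
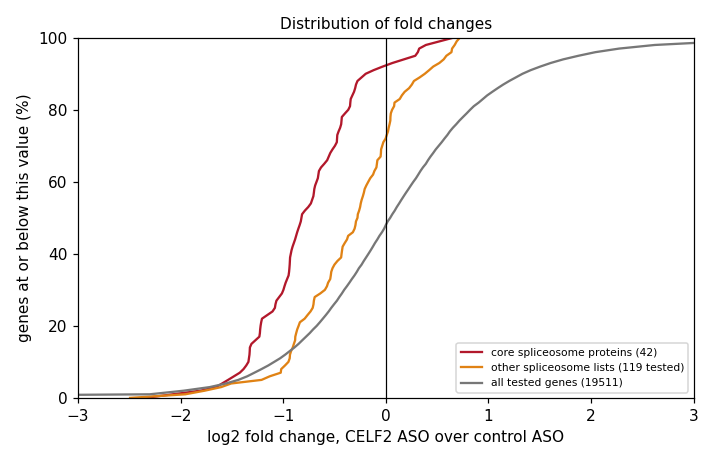
Share of genes at or below each log2 fold change (CELF2 ASO over control ASO) for the 42 core spliceosome genes in red, the 119 tested genes of the other spliceosome lists in orange and all 19511 tested genes in grey. The curves cross 50% near the medians of -0.82, -0.28 and 0.04.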

How the data were processed

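RNA sequencing of 4 libraries gave whole-number read counts per gene. Per the labels' protocols, 150-base paired-end sequencing was done (NovaSeq X Plus). Tools named per the submitters' processing notes are STAR 2.7.11b, featureCounts 2.0.8, Subread, Salmon 1.10.0 and bcl2fastq, with the GRCh38 build. The deposited counts showed no normalization by the authors. Which annotation release, strand setting and multi-mapping rule were used is not given in the sources used here.

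Gene symbols matched 61481 of 78932 IDs, and positions and exons came from GENCODE 29 on GRCh38 (57356 IDs). The 97 rows that name no gene, at most 1.03e-05 percent of counts, were left out. In R 4.3.3, edgeR 4.0.16 kept genes by filterByExpr (minimum count 10, minimum total 15), scaled by TMM and ran the two-sided quasi-likelihood test without covariates, with Benjamini-Hochberg adjustment over all genes. SE is the absolute log2 fold change over the square root of F. CPM uses the TMM-adjusted library size. An exact permutation test over 2 against 2 libraries cannot go below p = 0.333 and was not used. The pairs differed beyond sampling noise (chi-square per degree of freedom 18.5 with the CELF2 ASO and 3.38 with the control ASO). The main transcript was the principal coding one with the longest coding sequence. The fit was tested on simulated counts.

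The 42 genes and the lists were chosen with earlier results of these data known. Named genes were all 42, CELF2, the largest called rise and fall of each other list, copies with at least 10 counts and snRNA genes. LSM1 and the genes that overlap or neighbour a listed gene were named after their values were seen. Alternatives were RLE scaling, library totals alone, no filter, a 1 CPM filter, DESeq2 1.42.0, limma-voom (limma 3.58.1), a replicate block and leaving out each library.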

Additional observations from a re-analysis of the deposited data

How the results depend on the processing

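Of 462 values (42 genes under 11 alternatives), 437 kept direction and side of the threshold. All 11 kept the calls of 33 genes, 32 lower and LSM8 higher. The median log2 fold change of the 42 genes was -0.71 with library totals alone, -0.88 without a filter and -0.77 with a 1 CPM filter, and -0.87 to -0.78 when 1 library was left out. Totals alone shifted the median of all genes by 0.12 and made 58.17% of calls higher, against 49.64%, with 33 of the 42 genes lower and 3 higher (23.2% and 32.3% of all genes). Leaving out 1 library gave 1 to 4 of the 42 genes higher, and 8 to 19 higher genes in the other lists, where the main count was 13. SF3B5 changed sign without a filter (-0.026), without CELF2 ASO library 2 and without control ASO library 1 (-0.027), and ranged from -0.093 to 0.14 when 1 library was left out. SNRNP200 passed under RLE scaling (edgeR adjusted p = 0.0393), without a filter (0.00473) and in limma-voom (0.0364). The cause of these changes was not tested, except that with 1 library left in a group the spread comes from the pair of the other group alone. The replicate block used the label numbers. Deviations of same-number libraries had a correlation of 0.03, which does not settle whether these libraries were paired. With the block, 37 of the 42 genes were lower and 3 higher, with the same median of -0.82. In that fit 5407 of all genes were higher and 5402 lower. The 2 libraries per group limit the precision of every value, and genes with a change under about 1.5-fold, such as SF3B1, SF3B6, LSM4, SNRPB2, SNRPD3 and PRPF19, were among those whose calls moved.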
